A study of Mus musculus with 8 samples.

Results

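Proteasome subunit genes were examined in sorted regulatory T (Treg) cells from mice with both or with 1 copy of Bcl11b floxed; the gene encodes a zinc finger transcription factor found in T lymphocytes. The genes were taken by symbol, as every row whose name starts with Psma, Psmb, Psmc, Psmd, Psme, Psmf or Psmg followed by a number, which gave 50 of 23997 genes in the table. Of these, 48 reached the mean of 1 FPKM (fragments scaled for transcript length and library size) that was required for testing; the others were Psma8 and Psmb11. A pair of the 50 only share the name pattern. Psmc3ip encodes a recombination factor and no proteasome subunit, and Psme2b is a near copy of Psme2.

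Cells came from draining lymph nodes and spleen of C57BL/6 mice and were sorted as CD4+YFP+ cells. Deficient animals had the genotype Bcl11b f/f Foxp3-YFP-Cre/+, and sufficient animals, the controls, were Bcl11b f/+ Foxp3-YFP-Cre/+. Both groups thus carry Cre and at least one floxed Bcl11b copy. Cre is expressed from the Foxp3 locus, so recombination is directed to Foxp3-expressing cells. No treatment, age or sex is given in the labels. Foxp3 lies on chromosome X, and the sample titles begin with Het. The genotype as written, with a Foxp3 copy that carries Cre and a copy that does not, would thus be that of female animals. The table held 4 columns per group. Within the deficient group columns 1 and 3 and columns 2 and 4, and within the sufficient group columns 1 and 3, differed by a spread of 1.09 to 1.23 times the sampling noise of their reads, against 2.08 to 3.03 times for the other 9 pairs of the same group. Each such pair was averaged and counted as 1 library, which left 2 deficient and 3 sufficient libraries. No label states that the libraries stem from different animals; the p-values therefore reflect only how far these libraries lie apart, and that spread may be technical.

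Across the columns, depth estimated from the steps between low values was about 2690000 to 11900000 fragments, and total FPKM was 474416 to 495435 in deficient and 509592 to 613276 in sufficient columns. Sufficient replicate 4 stood apart through Snora61, at 31182.5 FPKM there and 0 in the other libraries. Bcl11b itself averaged 21.7 ± 3.83 FPKM (SD, n = 2) with deficiency and 42.7 ± 3.68 FPKM (SD, n = 3) in the controls; the log2 fold change was -0.95 (limma adjusted p = 0.0238). Bcl11b signal thus remained in every deficient column, at 18.7 to 24.6 FPKM. The table gives 1 value per gene, so the floxed part was not measured on its own, and the word deficient stands here for the genotype. All 8 Treg and CD4 T cell markers were detected in every column. Foxp3 was at 153 ± 0.517 against 187 ± 18.8 FPKM. Limma called 1 of the 8, Ctla4, lower and 0 higher, beside 0.697% and 1.93% of all genes tested. In 6 of the 8 the libraries did not overlap with deficient lower, and in 1 with deficient higher. Among all genes tested these shares were 17.9% and 18.9%.

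The proteasome is the barrel-shaped protease that degrades proteins tagged with ubiquitin. Its core particle stacks rings of alpha and beta subunits, and the regulatory cap unfolds substrates with a ring of ATPases and recognises and removes ubiquitin through its other subunits. In lymphocytes, and in other cells exposed to interferon-gamma, the catalytic subunits Psmb5, Psmb6 and Psmb7 are replaced in newly built particles by Psmb8, Psmb9 and Psmb10. The resulting immunoproteasome cuts proteins into peptides that suit MHC class I molecules, and the interferon-induced PA28 ring of Psme1 and Psme2 opens the core for such substrates.

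No proteasome gene passed the test between the groups. With limma and Benjamini-Hochberg adjustment over 10614 genes, 0 of 48 members were higher and 0 lower, beside 1.93% and 0.697% of all genes tested (2.63% in either direction). At an unadjusted p under 0.05, 1 member was higher and 6 were lower, 7 of 48 in all, beside 9.36%, 8.45% and 17.8% of all genes. The sizes were small: on the log2(FPKM + 1) scale the median log2 fold change of the members, deficient minus sufficient, was -0.15, against -0.01 for all genes tested. It was below 0 in 43 of 48 members (89.6%), against 52.1% of all genes; with quantile normalization the count was 36 of 48, and after scaling to equal total FPKM it was 13 of 48. For all 48 members the 95% interval excluded a 2-fold change in either direction, as it did for 89.2% of all genes. Libraries scaled to equal total FPKM moved the median of the members to 0.07 and that of all genes to 0.18, which put the members 0.12 below all genes. Quantile normalization gave a member median of -0.08 and a gap of 0.06, less than in the main comparison, where the gap was 0.13.

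**Figure D1:**
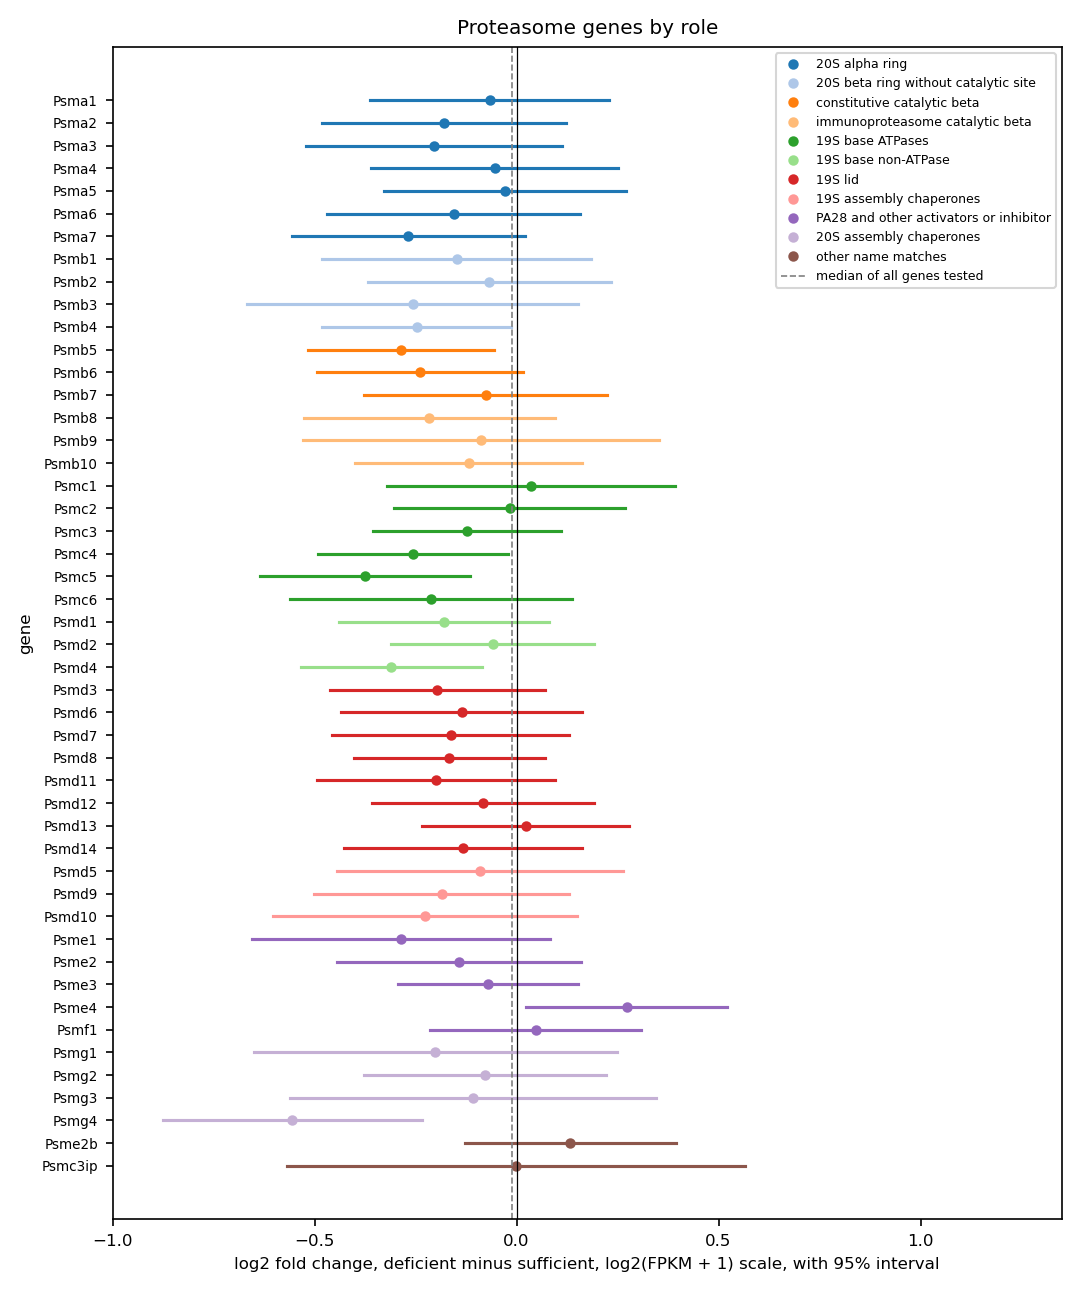
Log2 fold change (deficient minus sufficient, log2(FPKM + 1) scale, x axis) of the 48 tested proteasome genes (y axis), coloured by role, with bars for the 95% interval from limma and a dashed line for the median of all genes tested. Points lie between -0.55 (Psmg4) and 0.27 (Psme4), and 43 of 48 lie below 0.

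The immunoproteasome subunits were the most abundant catalytic subunits in both groups. Psmb8 (chromosome 17, 34197721 to 34201454, plus strand, GRCm38), which replaces Psmb5, had values of 272, 269.7, 243 and 249.7 FPKM in the deficient columns, in the order of replicates 1 to 4, while the sufficient columns read 285, 281, 275 and 345 FPKM. All deficient values lay below all sufficient ones. The deficient mean was 259 ± 1.503 FPKM (SD, n = 2), the sufficient mean 302 ± 37.3 FPKM (SD, n = 3), and the log2 fold change was -0.22 (95% interval -0.53 to 0.09, limma adjusted p = 0.442). Psmb9 (chromosome 17, 34181987 to 34187764, minus strand), which replaces Psmb6, measured 137, 164, 136 and 149.99 FPKM in deficient and 135, 138, 138 and 201 FPKM in sufficient replicates. The groups overlapped, and sufficient replicate 4 was the highest. Its log2 fold change was -0.09 (95% interval -0.53 to 0.35, adjusted p = 0.849); without sufficient replicate 4 it was 0.09. Psmb10 (chromosome 8, 105935735 to 105938444, minus strand), which replaces Psmb7, measured 114, 124, 103 and 122 FPKM in deficient and 134, 118, 110.0 and 138 FPKM in sufficient replicates, again with overlap. Its log2 fold change was -0.12 (95% interval -0.40 to 0.16, adjusted p = 0.649).

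Of the constitutive catalytic subunits, Psmb5 and Psmb6 were lower in every deficient library than in any sufficient one, without passing the test. The same order held for 17.9% of all genes tested. Psmb5 (chromosome 14, 54614119 to 54618022, minus strand), the subunit with chymotrypsin-like activity, measured 77.4, 77.8, 73.5 and 76.9 FPKM in deficient and 92.7, 92.5, 86.8 and 98.0 FPKM in sufficient replicates. The deficient columns spanned a narrow range that did not reach the sufficient one. The deficient mean was 76.4 ± 1.36 FPKM (SD, n = 2) against 93.4 ± 4.18 FPKM (SD, n = 3), and the log2 fold change was -0.29 (95% interval -0.52 to -0.06, limma adjusted p = 0.196). Psmb6 (chromosome 11, 70525367 to 70527858, plus strand), with caspase-like activity, measured 85.4, 89.8, 77.5 and 90.1 FPKM in deficient and 105, 96.4, 92.7 and 109 FPKM in sufficient replicates (log2 fold change -0.24, 95% interval -0.49 to 0.02, adjusted p = 0.312). Psmb7 (chromosome 2, 38588036 to 38644087, minus strand), with trypsin-like activity, measured 85.6, 111, 91.5 and 109 FPKM in deficient and 107, 96.9, 108 and 109 FPKM in sufficient replicates. Its groups overlapped, and the deficient libraries differed more from each other than the group means did (log2 fold change -0.08, 95% interval -0.38 to 0.22, adjusted p = 0.798). Psmb7 overlaps Nek6 by 6571 bases, and Psmb9 overlaps Tap1 by 212 bases, each on the opposite strand. Psmb8 and Psmb10 overlap the antisense genes Gm20496 (2139 bases) and Gm16156 (2710 bases), also on the opposite strand. The sources used here do not say whether the authors counted by strand.

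**Figure D2:**
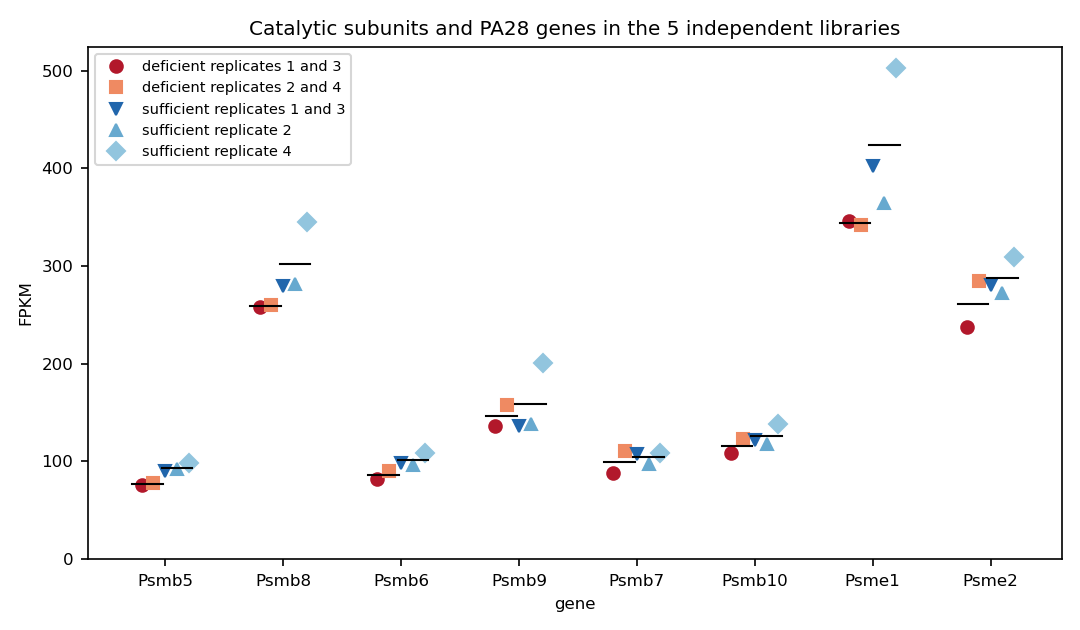
FPKM (y axis) of the catalytic subunit genes and of Psme1 and Psme2 (x axis) in the 5 independent libraries, with points for libraries and short lines for group means (n = 2 deficient, n = 3 sufficient). Psme1 and Psmb8 are the most abundant, Psmb5 is the lowest, and sufficient replicate 4 is the highest library for every gene shown except Psmb7.

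The balance between both kinds of catalytic subunit was compared within each library, where library scaling drops out. Psmb8 over Psmb5 was 3.41 and 3.36 in the deficient libraries (replicates 1 and 3, and replicates 2 and 4) and 3.12, 3.04 and 3.52 in the sufficient libraries (replicates 1 and 3, replicate 2 and replicate 4). Psmb9 over Psmb6 was 1.68 and 1.75 in deficient and 1.38, 1.43 and 1.85 in sufficient libraries. In both ratios the deficient libraries lay between the sufficient ones, above the other sufficient libraries and below replicate 4. Psmb10 over Psmb7 was 1.23 and 1.119 in deficient and 1.13, 1.21 and 1.27 in sufficient libraries. The log2 differences, deficient minus sufficient, were 0.07, 0.15 and -0.04, with exact two-sided permutation p = 0.4, 0.4 and 0.6 and Benjamini-Hochberg adjusted p = 0.6 for each of the 3 ratios. The smallest p that 10 assignments of 5 libraries allow is 0.1. Without sufficient replicate 4 the differences of the ratios to Psmb5 and Psmb6 were 0.14 and 0.28. The order of the ratios was the same in all 5 libraries: Psmb8 exceeded Psmb5 at least 3.04 times, while Psmb10 exceeded Psmb7 at most 1.27 times.

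**Figure D3:**
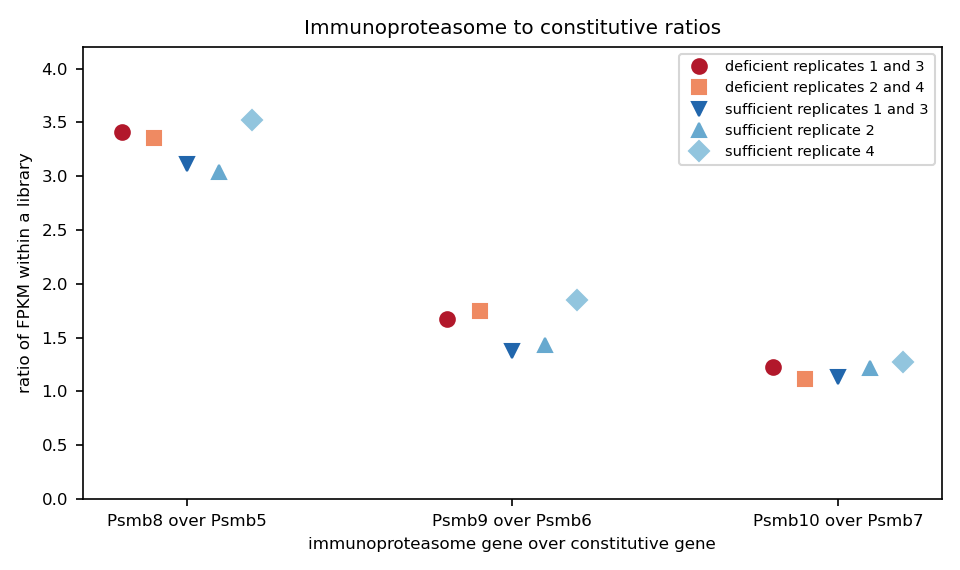
Ratio of FPKM within a library (y axis) for each immunoproteasome gene over the constitutive gene it replaces (x axis), with a point for each of the 5 independent libraries. The deficient points lie within the range of the sufficient points for Psmb8 over Psmb5 and Psmb9 over Psmb6, and overlap with it for Psmb10 over Psmb7.

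Promoter windows of 300 bases around RefSeq starts (GRCm38.p6) were given for 42 of the 50 genes, as 45 windows. They were searched on both strands for the interferon-gamma activated site TTCNNNGAA, the core of the interferon-stimulated response element (a doubled GAAA with any pair of bases between), the antioxidant response element TGACNNNGC, which the proteasome regulators Nfe2l1 and Nfe2l2 are known to bind, and the CCAAT box. These were present in 6.67%, 11.1%, 13.3% and 33.3% of the windows of the members and in 8.3%, 3.44%, 12.4% and 37.4% of all 32851 windows. No match of another motif overlaps the capitals printed. Shown are the sequences at Psmb8 and at Psmb5 and Psmb6, which belong to the comparison of inducible with constitutive subunits. Also shown is Psmd4, the cap subunit with one of the lowest p-values. The other genes of that comparison, Psmb9, Psmb10 and Psmb7, had no match of an interferon motif or antioxidant response element. A window was not given for every member, so the printed sequences do not stand for either kind of subunit. Capitals mark the match.
Psmb8: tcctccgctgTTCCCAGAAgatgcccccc
Psmb5: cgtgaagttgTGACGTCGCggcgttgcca
Psmb6: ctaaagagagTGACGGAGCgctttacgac
Psmd4: ataaccaaccTTTCCATTTCtgtggcgcct
The Psmb8 sequence (chr17:34198088-34198116, plus strand) holds an interferon-gamma activated site that begins 97 bases before the RefSeq start and lies inside the longer GENCODE gene. The sequences of Psmb5 (chr14:54618024-54618052, minus strand) and Psmb6 (chr11:70525338-70525366, plus strand) hold antioxidant response elements that begin 47 and 9 bases before the start. That of Psmd4 (chr3:95042675-95042704, minus strand) holds the response element core on the opposite strand, 80 bases before the start. A match is a description of letters and shows no binding.

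The PA28 genes lie close together on chromosome 14 and were at high levels. Psme1 (55578123 to 55581529, plus strand) had the highest mean of all members, and measured 343, 351, 349 and 334 FPKM in deficient and 409, 365, 396 and 503 FPKM in sufficient replicates. All deficient columns lay below all sufficient ones, and sufficient replicate 4 was far above the rest. The deficient mean was 344 ± 2.45 FPKM (SD, n = 2), the sufficient mean 423 ± 71.3 FPKM (SD, n = 3), with a log2 fold change of -0.29 (95% interval -0.65 to 0.08, limma adjusted p = 0.394). Psme2 (55587441 to 55591113, minus strand) measured 235, 289, 239.8 and 280.0 FPKM in deficient and 270.2, 272, 291 and 309 FPKM in sufficient replicates, with overlap (log2 fold change -0.14, 95% interval -0.44 to 0.16, adjusted p = 0.610). Its near copy Psme2b, which lies within the annotated gene Gm12185, was at 35.3 ± 2.34 against 32.1 ± 2.43 FPKM, and reads could be split between the copies. Psme3, the nuclear PA28 subunit, was at 59.3 ± 2.46 and 62.3 ± 0.927 FPKM.

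Psme4, which encodes the activator PA200, was the member with the highest log2 fold change and the only tested one with all deficient libraries above all sufficient ones. It measured 17.4, 17.8, 17.5 and 19.6 FPKM in deficient and 13.7, 14.2, 16.0 and 15.4 FPKM in sufficient replicates. The groups did not overlap. The log2 fold change was 0.27 (95% interval 0.02 to 0.52, limma adjusted p = 0.246). Psmf1, which encodes the core inhibitor PI31, measured 12.5 ± 0.464 against 12.0 ± 0.668 FPKM.

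In the alpha ring, which gates the entry of the barrel, the 7 tested genes had mean levels from 57.4 FPKM for Psma5 to 172 FPKM for Psma2, and 7 of 7 had a log2 fold change below 0, with a median of -0.16. Psma7 measured 98.9, 125, 105 and 129.6 FPKM in deficient and 145, 137, 136 and 135 FPKM in sufficient replicates. Its groups did not overlap, though the deficient libraries were far apart (log2 fold change -0.27, 95% interval -0.56 to 0.02, limma adjusted p = 0.317). Psma2 and Psma3 were at log2 fold changes of -0.18 and -0.20. The alpha subunit Psma8, specific to the testis, was at most 0.211 FPKM in any column, and the thymus-specific catalytic subunit Psmb11 at most 0.159 FPKM.

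The beta subunits without a catalytic site ranged from 100.3 FPKM for Psmb2 to 168 FPKM for Psmb1 in mean level, and 4 of 4 had a log2 fold change below 0. Psmb4 measured 138, 142, 132 and 146 FPKM in deficient and 173, 163, 156 and 169 FPKM in sufficient replicates. The groups did not overlap (log2 fold change -0.25, 95% interval -0.48 to -0.01, limma adjusted p = 0.259). Psmb3 had a similar log2 fold change of -0.26 with a wider interval, -0.67 to 0.15.

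The base of the cap contains the ATPase ring that unfolds substrates. Of its 6 ATPase genes, 5 had a log2 fold change below 0 (median -0.17). In 3 of the 6, namely Psmc3, Psmc4 and Psmc5, deficient libraries were lower without overlap, as in 17.9% of all genes tested. Psmc5 measured 60.3, 62.3, 61.9 and 70.6 FPKM in deficient and 93.7, 76.2, 76.0 and 88.4 FPKM in sufficient replicates. All deficient values were below all sufficient values. Deficient libraries averaged 63.8 ± 3.79 FPKM (SD, n = 2), sufficient ones 83.2 ± 6.31 FPKM (SD, n = 3), and the log2 fold change was -0.38 (95% interval -0.64 to -0.12, limma adjusted p = 0.144). Psmc4 measured 63.2 ± 3.05 against 75.7 ± 3.28 FPKM (log2 fold change -0.26, adjusted p = 0.248). Psmc6, the least abundant ATPase gene, had a log2 fold change of -0.21 (limma adjusted p = 0.509). The remaining pair had fold changes near 0, with Psmc1 at 70.1 ± 14.7 against 67.8 ± 6.01 FPKM and Psmc2 at 61.7 ± 9.30 against 62.1 ± 2.76 FPKM.

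Psmd4, the ubiquitin receptor of the base, measured 87.8, 84.2, 84.8 and 86.2 FPKM in deficient and 109, 103, 106 and 109 FPKM in sufficient replicates. Both groups were tight and did not overlap. The log2 fold change was -0.31 (95% interval -0.53 to -0.09, limma adjusted p = 0.158). The scaffold genes of the base were at -0.18 (Psmd1) and -0.06 (Psmd2). In the lid, which removes ubiquitin chains, 7 of 8 genes had a log2 fold change below 0, with a median of -0.15 and a range from -0.20 for Psmd11 to 0.02 for Psmd13. Psmd3 and Psmd8 had groups that did not overlap, at 53.7 ± 2.80 against 61.8 ± 5.51 FPKM and 80.5 ± 2.33 against 90.5 ± 4.60 FPKM. These were 2 of the 8 lid genes, beside 17.9% of all genes tested that were lower without overlap. The median over core genes was 1.61 to 1.77 times the median over cap genes in each of the 5 libraries, on the FPKM scale.

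The assembly chaperones within the name pattern were at lower levels than the tested subunits they assemble. Psmd5, Psmd9 and Psmd10, chaperones of the base, had mean levels of 22.8, 8.38 and 18.1 FPKM, and the core chaperones Psmg1 to Psmg4 lay between 16.6 FPKM for Psmg3 and 32.1 FPKM for Psmg4. Psmg4 had the lowest log2 fold change of all members, -0.55 (95% interval -0.88 to -0.23, limma adjusted p = 0.0935). It measured 16.6, 18.9, 31.8 and 31.6 FPKM in deficient and 37.9, 40.9, 40.2 and 31.2 FPKM in sufficient replicates. The groups overlapped by column, and both averaged deficient pairs joined a low, shallower column with a high, deeper one. With the deeper column of each averaged pair alone, an alternative chosen after seeing the data, the log2 fold change was -0.22 (adjusted p = 0.459).

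Over all members, 15 of 48 had libraries that did not overlap with deficient lower, and 1 of 48 with deficient higher. Among all genes tested these shares were 17.9% and 18.9%. The 15 were Psma7, Psmb4, Psmb5, Psmb6, Psmb8, Psmc3, Psmc4, Psmc5, Psmd1, Psmd3, Psmd4, Psmd8, Psme1, Psme3 and Psmg4. With the 8 columns taken as separate libraries, limma called 5 members lower (Psmb4, Psmb5, Psmc4, Psmc5 and Psmd4) and Psme4 higher, while 7.98% and 9.46% of all genes were called lower and higher. Those columns include the near-identical ones, so that count treats repeats as replicates. With the replicate number as a block it was 3 lower (Psmb5, Psmc5 and Psmd4) and 0 higher, beside 6.05% and 7.31% of all genes.

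The deficient libraries also differed from each other in these genes. The library of deficient replicates 1 and 3 was the lowest of the 5 in 35 of 48 members, against 23.6% of all genes tested. Deficient replicates 2 and 4 were above it in 42 of 48 members, against 51% of all genes, with a median log2 difference of 0.21 (0.01 for all genes). The exceptions were Psmd3, Psmd4, Psmd9, Psme1, Psmf1 and Psmg2. Without the library of replicates 1 and 3 the median log2 fold change of the members was -0.03, with 27 of 48 below 0, and without the library of replicates 2 and 4 it was -0.24.

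Some markers of other cell types also moved with the groups. All 17 measured macrophage and monocyte markers were higher in deficient libraries. Limma called 10 of them higher, beside 1.93% of all genes tested. Cd163, a scavenger receptor of macrophages, was listed at 0 in sufficient replicate 1 and above 0 in the other columns. Summed, the macrophage and monocyte markers reached 778 and 411 FPKM with deficiency (replicates 1 and 3, then 2 and 4). The controls were at 29.2, 105 and 94.2 FPKM. The library of deficient replicates 1 and 3 thus had the highest macrophage marker sum and the lowest sum over the proteasome genes, 3632 FPKM, against 4129 FPKM in the other deficient library and 4066 to 4716 FPKM in the sufficient ones. Among the other lists, limma called 3 of 6 tested NK cell markers higher (Klrd1, Klrk1 and Gzma). It also called 2 of 4 dendritic cell markers (Siglech and Batf3) and 1 of 3 B cell markers (Ly6d) higher, and 0 on these lists lower. Among all genes tested, 1.93% were called higher and 0.697% lower. Other markers on these lists did not rise: the log2 fold change was 0.04 for Eomes and -0.13 for Prf1 (NK), and -0.60 for Cd79b (B). NK markers summed to 32.2 and 62.2 FPKM in the deficient libraries, in the same order, against 4.43, 8.37 and 8.11 FPKM in the controls. Klrd1 and Gzma made up most of the deficient sums. The 3 tested erythroid markers were not called, and the sum over that list was 19.9 and 208 FPKM against 0.671, 118 and 25.2 FPKM. The NK and erythroid sums were thus lower in the library of deficient replicates 1 and 3 than in the other deficient library, the reverse of the macrophage sum. Dendritic cell markers summed to 135 and 129.8 against 117 to 132 FPKM, and B cell markers to 20.7 and 22.2 against 14.7 to 24.2 FPKM. Bst2 made up most of each dendritic sum, at 121 and 119 against 114 to 131 FPKM. Of the 4 tested dendritic markers, 3 had a log2 fold change above 0 and Bst2 was at -0.00193. Siglech was at 6.29 and 2.34 against 0 to 0.225 FPKM, and Batf3 at 2.67 and 4.96 against 0.295 to 0.896 FPKM. The part of any of these cells in the proteasome values was not tested, and in bulk samples fewer cells of a type and less RNA per cell cannot be told apart. As a share of total FPKM, the members made up 0.763% and 0.841% in deficient and 0.770%, 0.798% and 0.769% in sufficient libraries, so the deficient libraries lay on either side of the sufficient ones.

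**Figure D4:**
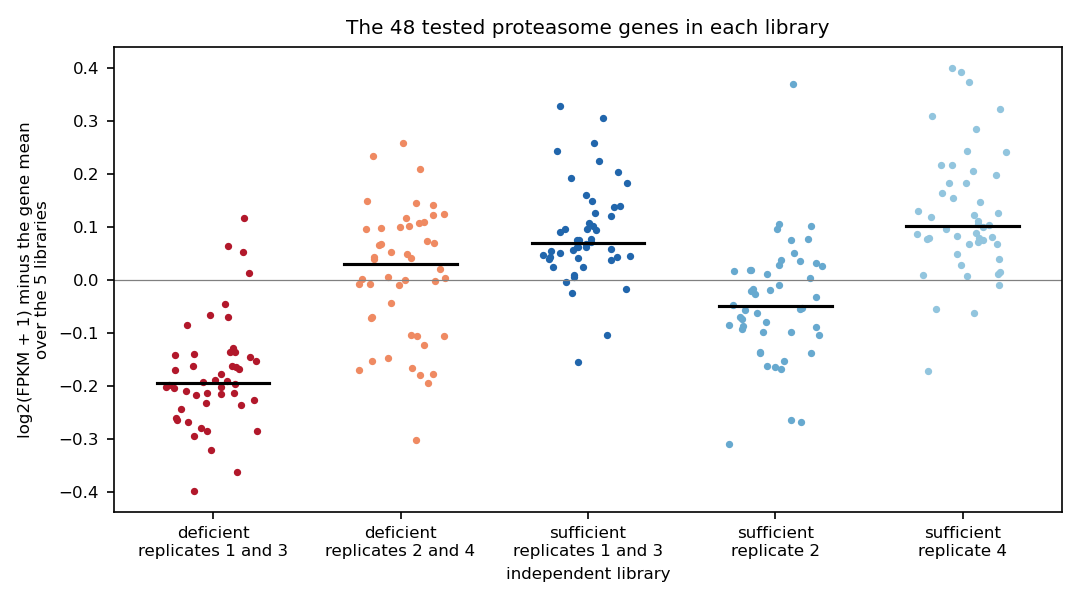
Each of the 48 tested proteasome genes as a point, at its log2(FPKM + 1) minus its mean over the 5 libraries (y axis), in each independent library (x axis), with a line for the median. The medians are -0.20 and 0.03 in the deficient libraries and 0.07, -0.05 and 0.10 in the sufficient libraries.

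Of 21 genes for proteasome partners outside the name pattern, 0 were called higher and 0 lower by limma (1 and 0 at an unadjusted p under 0.05), and the median log2 fold change was -0.07. Of all genes tested, 1.93% were called higher and 0.697% lower (9.36% and 8.45% at an unadjusted p under 0.05). Nfe2l2, a transcription factor of the oxidative stress response that also acts on proteasome genes, measured 28.0, 23.9, 26.1 and 25.2 FPKM in deficient and 17.3, 16.7, 19.2 and 17.6 FPKM in sufficient replicates. All deficient columns were above all sufficient ones. Its log2 fold change was 0.53 (adjusted p = 0.0525), and the adjusted p was 0.0299 after scaling to equal totals, 0.0490 with quantile normalization, 0.0427 with robust empirical Bayes and 0.0468 without deficient replicate 2. It was 0.00163 with the 8 columns as separate libraries and 0.00948 with the replicate block; over all alternatives it ran up to 0.306. Nfe2l1, the related factor that restores proteasome genes when the proteasome is inhibited, measured 29.4 ± 0.766 against 28.1 ± 2.44 FPKM. Shfm1, the smallest lid subunit, measured 230.1 ± 32.5 against 275 ± 6.43 FPKM, and the shuttle gene Zfand5 10.1 ± 0.815 against 8.40 ± 0.921 FPKM.

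Of 6 ubiquitin and ubiquitin-activating enzyme genes, limma called 0 higher and 0 lower (0 and 1 at an unadjusted p under 0.05). The shares of all genes tested were 1.93% and 0.697% (9.36% and 8.45% at an unadjusted p under 0.05). Rps27a, which encodes ubiquitin fused to a ribosomal protein, measured 1071 ± 182 against 1548 ± 319 FPKM (log2 fold change -0.52, adjusted p = 0.266), and Ubb, a polyubiquitin gene, 323 ± 2.72 against 398 ± 100.3 FPKM (log2 fold change -0.27, adjusted p = 0.569). Rps27a passed the threshold with the 8 columns as separate libraries (limma adjusted p = 0.0323) and with the replicate block (0.0361).

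The genes that carry proteasome products to the cell surface were likewise not called, with 0 of 13 higher and 0 lower by limma (0 and 1 at an unadjusted p under 0.05, median log2 fold change -0.20). The shares of all genes tested were 1.93% and 0.697% (9.36% and 8.45% at an unadjusted p under 0.05). Tap2, a subunit of the peptide transporter whose gene lies beside Psmb8, measured 122 ± 16.7 against 147 ± 15.3 FPKM (adjusted p = 0.357). H2-K1, an MHC class I heavy chain, measured 2214 ± 93.3 against 2798 ± 257 FPKM (adjusted p = 0.345), and Calr, a chaperone of the loading complex, 246 ± 26.4 against 302 ± 9.83 FPKM (adjusted p = 0.246). With the 8 columns as separate libraries Calr and H2-K1 passed the threshold (limma adjusted p = 0.0198 and 0.0414), and with the replicate block neither did.

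Among 13 genes of the interferon-gamma pathway that induces the immunoproteasome, limma called 0 higher and 1 lower (2 and 3 at an unadjusted p under 0.05). Of all genes tested, 1.93% were called higher and 0.697% lower (9.36% and 8.45% at an unadjusted p under 0.05). The gene that fell was Ifngr1, the ligand-binding chain of the interferon-gamma receptor. It measured 55.7, 62.0, 53.4 and 57.3 FPKM in deficient and 114, 101, 115 and 91.1 FPKM in sufficient replicates, and no deficient column came near the sufficient range. Deficient libraries averaged 57.1 ± 3.65 FPKM (SD, n = 2), sufficient ones 102 ± 11.9 FPKM (SD, n = 3), with a log2 fold change of -0.83 (SE 0.13, limma adjusted p = 0.0265). The call ended with no filter on low values (adjusted p = 0.0720), after scaling to equal totals (0.0881), and without sufficient replicate 2 (0.0664), deficient replicates 1 and 3 (0.196), deficient replicates 2 and 4 (0.130) or sufficient replicates 1 and 3 (0.0548). Stat2, which signals from type I interferon receptors, measured 38.5 ± 2.38 against 29.4 ± 1.36 FPKM (adjusted p = 0.124), and Socs1, a feedback inhibitor, 23.2 ± 7.99 against 37.7 ± 7.46 FPKM (adjusted p = 0.192). With the 8 columns as separate libraries, both passed the threshold (limma adjusted p = 0.00445 for Stat2 and 0.0390 for Socs1), and they did so with the replicate block (0.0253 and 0.0230).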

How the data were processed

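RNA sequencing values for 8 columns in 2 groups of 4 were used as deposited; 8 further value columns matched no sample by name and were not used. The authors deposited FPKM per gene, a unit taken from the name of their table and its values. Per the submitters' processing notes, STAR 2.5.1, Cuffdiff 2.2.1, Cuffnorm 2.2.1, FastQC, cutadapt 1.12 and Trim Galore 0.4.2 were used with the mm10 build; their settings, the annotation and the scaling between libraries are not given here. Depth came from the steps between values up to 1 FPKM and GENCODE M21 lengths (GRCm38); it is approximate, so count models and counting intervals were not used. Columns of a group that differed by under 1.5 times the sampling noise were averaged.

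With limma 3.58.1 (R 4.3.3, mean-variance trend), log2(FPKM + 1) was compared for genes averaging 1 FPKM or more, two-sided, with Benjamini-Hochberg adjustment over all of them and a threshold of 0.05. This scale understates the change of low genes, and abundant transcripts lower the FPKM of all others. Ratios were tested by exact permutation over libraries. The limma step was tested on simulated data with changes larger than that of any member. That test does not show how often changes as small as those of the members would be found. By rule, the text names the catalytic and PA28 genes, every called gene of a list, up to 3 genes per list by lowest unadjusted p, and the most and least abundant gene of each role. Nfe2l1, Psma5, Psmc1, Psmc2, Psmc3ip, Psmd13, Psme2b, Psme3, Tap1, Foxp3, Ctla4, Cd163, the NK, dendritic and B cell markers and genes in enumerations of counts were added after their values were seen. Some genes that the rule or lists include are not reported by name here. The members and lists were chosen with earlier results of these data known. Alternatives covered the pseudocount, filters, scaling, robust empirical Bayes, columns as separate libraries, the replicate number as a block, and each column or library left out; the deeper column of each pair was added after seeing the data.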

Additional observations from a re-analysis of the deposited data

How the results depend on the processing

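The count of proteasome genes called was 0 in each direction under the changes of pseudocount, filter, scaling and empirical Bayes and with any column or independent library left out. Only the columns taken as separate libraries changed it, to 1 higher and 5 lower, or 0 higher and 3 lower (Psmb5, Psmc5 and Psmd4) with the replicate block. Deviations from the group means of same-numbered columns correlated at 0.03, 0.06, 0.13 and 0.09, not all above the 0.1 required here to treat the numbers as pairs. As a hint from the data, all 4 were above 0, and 3 of 4 deficient columns correlated best with their own number. Deficient replicate 1 correlated best with sufficient replicate 2 (0.13). Of the 12 others 9 were below 0, but deviations within a group sum to 0 for each gene. Same-number values above 0 thus push the others below 0, and that count adds no separate evidence. In both groups columns 1 and 2 were shallower than columns 3 and 4, so number and depth go together in part. The part of depth in these correlations was not tested. With the replicate block, Nfe2l2, Rps27a, Stat2 and Socs1 also passed the threshold. Counts over all genes under other settings ran from 0 to 847 lower and from 8 to 1004 higher, against 74 and 205. The median log2 fold change of the members was -0.076 with quantile normalization and 0.066 after scaling to equal totals; it was -0.028 when deficient replicates 1 and 3 were left out, and -0.24 when replicates 2 and 4 were. With single columns left out it ran from -0.21 to -0.10.

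Direction was judged against the median of all genes in each setting; by plain sign, 19 of the 45 named genes tested changed after scaling to equal totals. It turned with quantile normalization for Psmb9 (0.021), Psmb7 (-0.00362), Psme2 (0.044), Psmb2 (0.00261), Psmd2 (0.00385) and H2-K1 (0.083). Without deficient replicates 1 and 3 it turned for Psmb9 (0.013), Psmb7 (0.080), Psmb1 (0.00660), Psmb2 (0.090), Psmd2 (0.050), Psmd10 (0.034), Psmd5 (0.064) and Psmg3 (0.059). Leaving out the other deficient library turned Psmg2 (0.022) and Psmb10 over Psmb7 (0.023). Psmf1 was at -0.010 with the deeper column of each pair. With single columns left out, Psmb9 ran from -0.17 to 0.094, Psmf1 from -0.011 to 0.10, Psmg3 from -0.26 to 0.032 and Psmb10 over Psmb7 from -0.11 to 0.020. The cause of these changes was not tested. Depth limits the assessment of Psma8 and Psmb11, which lay below the filter.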
